A study of Mus musculus with 2 samples.

Results

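Pax2, Vax1, Vax2, Pax6, Six3, Six6, Lhx2, Otx2 and Nkx2-1 are regional transcription factors of the embryonic eye and forebrain. These 9 genes were chosen by name, with earlier results of these data known, and each had 1 entry among the 23950 gene symbols measured. They were measured by RNA-seq in optic nerve of mice of mixed strain at postnatal day 12, in 1 library per group. The control library came from Hdac3 f/+; Olig1-cre animals, so it carries the Cre and 1 floxed copy of Hdac3, and the Hdac3 cKO library came from Hdac3 f/f; Olig1-cre animals, in which Cre made from the Olig1 gene can delete both copies in cells that express it or descend from such cells. Hdac3 encodes a histone deacetylase, and the study asks how it acts on the choice between oligodendrocyte and astrocyte fate. How many animals went into each library is not stated in the sources used here.

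The optic nerve grows out of the optic stalk, the narrow bridge between the optic cup and the ventral forebrain. In the embryo, Pax2, Vax1 and Vax2 mark the stalk and ventral eye under the influence of Sonic hedgehog, while Pax6 marks the optic cup and represses, and is repressed by, Pax2. Six3, Six6, Lhx2 and Otx2 act in the eye field, the retina or its pigment layer, and Nkx2-1 acts in the ventral forebrain and hypothalamus. Glia of the later nerve keep part of this regional identity, and astrocyte precursors of the nerve are known for Pax2 and Vax1. The comparison here sets Pax2 and Vax1, the stalk pair, beside the retinal and forebrain factors, with which Vax2 is counted, in control and Hdac3 cKO nerve.

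Expression was given as FPKM, fragment numbers scaled to the length of the transcript and the size of the library, which allows levels to be compared between genes. Each FPKM came with a lower and an upper bound deposited by the authors. The bounds do not hold variation between animals, and 16.1% of control values and 33.5% of cKO values lay outside their own bounds among tested genes at 1 FPKM or more in both libraries. Genes that reached 1 FPKM in either library, and whose estimate was not marked as failed in either, were tested, and there were 14154 of them. The difference was log2 of (FPKM + 1) in cKO minus the same in control, which understates the change of genes at low levels. Genes were counted as higher or lower if they differed 2-fold or more and had separate intervals, a rule met by 4.73% of tested genes on the higher side and 4.51% on the lower side. Each group being 1 library, no difference has a replicate check or a p-value, and every one is between these 2 libraries as labelled. The counts of reads are unknown. Hdac3 was at 36.4 FPKM in the control library and 38.0 in the cKO library, which does not check the labels, since a gene total does not show which exons were read.

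Vax2, Nkx2-1 and Otx2 stayed below 1 FPKM in both libraries, so 6 of 9 factors could be tested. In the control library, Lhx2 (8.37 FPKM), Six3 (7.58) and Vax1 (6.82) were the highest, and the intervals of neighbours in this order overlapped. Pax2 (3.68) came next, with an interval separate from those of its neighbours. Six6 (2.06) and Pax6 (1.99) followed with overlapping intervals. Vax2 (0.493), Nkx2-1 (0.482) and Otx2 (0.0745) were lowest. In the cKO library the order was Vax1 (12.4 FPKM), Six3 (11.6), Lhx2 (9.67), Pax2 (5.28), Pax6 (3.81), Six6 (2.31), Vax2 (0.800), Nkx2-1 (0.348) and Otx2 (0.0235), and only the intervals of Vax1 and Six3 overlapped between neighbours. Transcripts of the eye-field factors Lhx2 and Six3 were thus in the range of Vax1 and above Pax2 in both libraries.

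**Figure D1:**
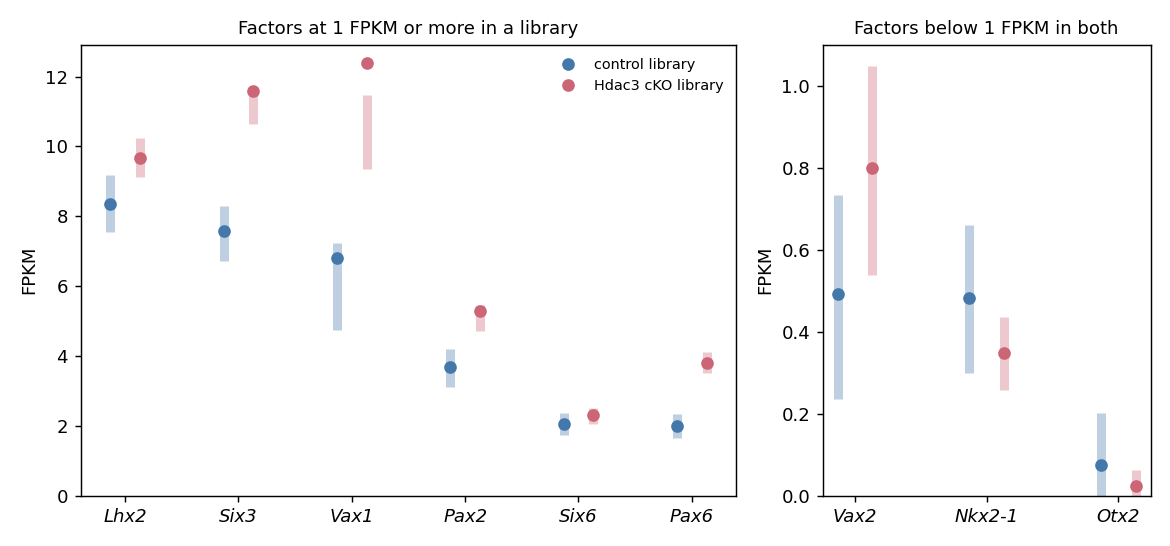
FPKM (vertical axes, linear, from 0) of the 9 patterning factors in the control and the Hdac3 cKO library; points are deposited values and bars the deposited intervals. The cKO intervals of Vax1, Six3, Pax2 and Pax6 lie above those of control, and those of Lhx2 and Six6 overlap; the cKO point of Vax1 lies above its own interval.

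None of the 6 tested factors met the rule for higher or lower, 0 of 6 in each direction, against the 4.73% and 4.51% of all tested genes. Their log2 differences were all above 0, from 0.12 to 0.78, with a median of 0.49, while the median of all tested genes was 0.12 and 61.4% of these were above 0. Among the 5341 tested genes with mean FPKM in the range of the tested factors, the median was also 0.12, and the middle 50% ran from -0.15 to 0.43. At any size of difference, 4 of 6 factors had a cKO interval above that of control and 0 had one below, while 38.4% of all tested genes had a cKO interval above and 22.5% one below. This reading of the intervals was chosen after the values were seen. After scaling both libraries to the same sum of FPKM, 3 of 6 factors were above, the interval of Pax2 no longer being separate, and the share among all tested genes was 19.3%.

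**Figure D2:**
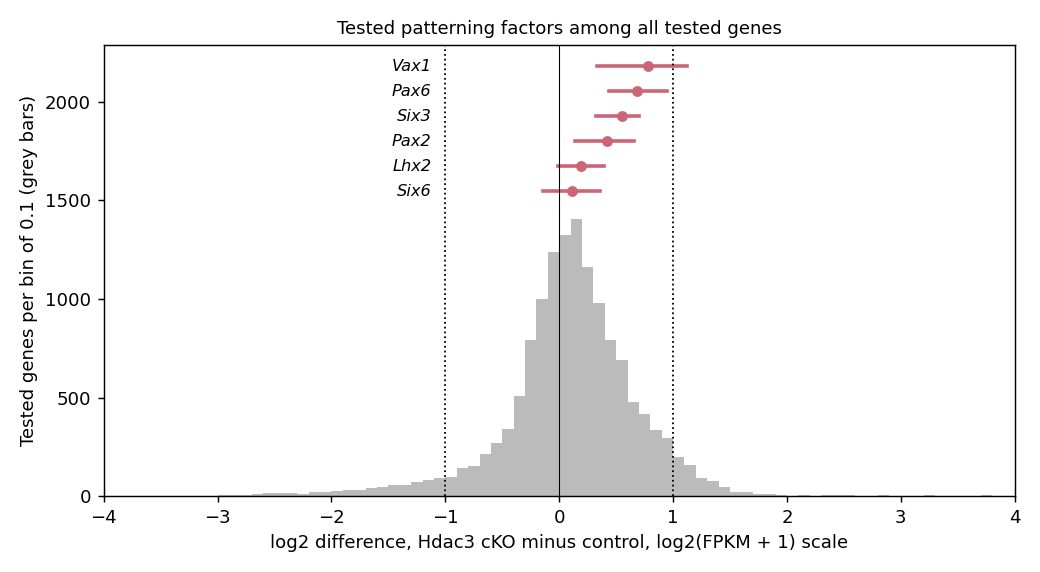
Distribution of the log2 difference (horizontal axis, cKO minus control on the log2(FPKM + 1) scale) over tested genes (grey bars, number of genes per bin of 0.1), with the 6 tested factors as points and, as lines, the range that their deposited bounds give. The points sit between 0.12 and 0.78, inside the dotted lines that mark a 2-fold difference.

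The upstream sequences of Vax1, Six3 and Six6 are shown because these are the tested factors with a single start site in the RefSeq promoter table, and because Vax1 and Six6 had the largest and the smallest difference. Each is the 250 bases before the start on the gene's strand in the GRCm38 build, which differs from the mm9 build of the expression files. Capitals mark TAAT or its reverse complement ATTA, the core that many homeodomain proteins bind, the products of Vax1 and Lhx2 among them. The windows are chr19:59170398-59170647 on the minus strand for Vax1, chr17:85620584-85620833 on the plus strand for Six3 and chr12:72939632-72939881 on the plus strand for Six6.
Vax1: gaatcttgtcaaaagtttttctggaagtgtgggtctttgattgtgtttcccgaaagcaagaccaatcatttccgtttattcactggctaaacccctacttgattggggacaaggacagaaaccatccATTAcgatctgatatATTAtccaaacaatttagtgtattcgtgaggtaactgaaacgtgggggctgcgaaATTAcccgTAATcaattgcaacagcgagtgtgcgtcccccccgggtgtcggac
Six3: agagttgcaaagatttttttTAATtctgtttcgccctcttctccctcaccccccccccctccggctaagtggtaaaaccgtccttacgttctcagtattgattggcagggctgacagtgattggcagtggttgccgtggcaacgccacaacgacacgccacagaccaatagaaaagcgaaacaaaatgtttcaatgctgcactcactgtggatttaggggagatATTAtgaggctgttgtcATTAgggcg
Six6: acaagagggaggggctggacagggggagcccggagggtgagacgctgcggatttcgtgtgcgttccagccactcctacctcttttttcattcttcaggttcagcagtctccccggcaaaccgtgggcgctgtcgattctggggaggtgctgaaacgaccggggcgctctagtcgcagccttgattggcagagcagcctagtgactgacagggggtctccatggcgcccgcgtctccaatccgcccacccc

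The core occurred 4 times in the Vax1 window, 3 times in the Six3 window and 0 times in the Six6 window, counting both strands. Of 32851 windows of this length, 54.9% held at least 1 match, 17.3% at least 3 and 9.62% at least 4. CCAAT, a common promoter element, with its reverse complement ATTGG, occurred 2 times in the Vax1 window, 3 times in the Six3 window and 2 times in the Six6 window, while 33.8% of all windows held it at least once, 10.1% at least 2 times and 2.79% at least 3 times. These are matches of letters and not measured sites, and no match says nothing about binding elsewhere.

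Vax1 (chromosome 19, 59240677 to 59244519, mm9), a homeodomain factor needed for the stalk and for the growth of axons through the chiasm, had the largest log2(FPKM + 1) difference of the tested factors. With a pseudocount of 0.1, Pax6 was at 0.90 and Vax1 at 0.85. Vax1 was at 6.82 FPKM in the control library, with bounds of 4.74 and 7.23. The cKO library had 12.4 FPKM, with bounds of 9.36 and 11.5, both below the value itself. The ratio of cKO to control was 1.82 and the log2 difference 0.78, and the bounds give 0.33 to 1.12. The difference was above that of 89.1% of tested genes and was short of the 2-fold limit.

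Pax2 (chromosome 19, 44831884 to 44912359, mm9), a paired-domain factor required to close the optic fissure and to form the nerve head, was at 3.68 FPKM in the control library, with bounds of 3.11 and 4.19. The cKO library had 5.28 FPKM, with bounds of 4.70 and 5.47. The ratio was 1.43 and the log2 difference 0.42, with 0.14 to 0.65 from the bounds. The cKO library was higher for both genes of the stalk pair, with separate intervals and less than 2-fold. A cKO interval above that of control was found for 38.4% of all tested genes, and with equal sums that of Pax2 was not separate. The pair had a median log2 difference of 0.60 and together made 10.5 FPKM in control against 17.7 in cKO.

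Vax2 (chromosome 6, 83661258 to 83688298, mm9), the relative of Vax1 that specifies the ventral retina, was at 0.493 FPKM in control (interval 0.235 to 0.734) and 0.800 in cKO (interval 0.538 to 1.05). The intervals overlapped, and the gene was below the minimum for a test. Its antisense neighbour Vax2os, which overlaps it, was at 0.184 and 0.289 FPKM, and with an RNA kit that does not mark strand, reads from the overlap cannot be assigned to either gene. Vax1 was the main Vax gene of the nerve in both libraries.

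Pax6 (chromosome 2, 105509053 to 105537521, mm9), the optic cup factor that opposes Pax2, had the largest ratio of the tested factors. It was at 1.99 FPKM in the control library (interval 1.66 to 2.33) and 3.81 in the cKO library (interval 3.52 to 4.10), a ratio of 1.91. The log2 difference was 0.68, with 0.44 to 0.94 from the bounds, and 0.90 with a pseudocount of 0.1. Its antisense neighbour Pax6os1 was listed at 0 in control and at 0.0545 FPKM in cKO. Pax2 and Pax6, which exclude each other in the embryonic eye, were thus both higher in the cKO library with separate intervals and below 2-fold. Over all tested genes, 38.4% had a cKO interval above that of control. With equal sums, the interval of Pax2 was not separate and its log2 difference was 0.15.

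Six3 (chromosome 17, 86020174 to 86025531, mm9), which represses Wnt signals in the rostral forebrain and eye field, was at 7.58 FPKM in control (interval 6.73 to 8.31). It was at 11.6 FPKM in cKO (interval 10.6 to 11.6), a ratio of 1.53 and a log2 difference of 0.55, with 0.32 to 0.70 from the bounds. Its divergent noncoding neighbour Six3os1 (chromosome 17, 86001272 to 86017736, mm9), which lies 2437 bases away in the authors' table, was at 16.9 FPKM in control (interval 15.6 to 18.2) and 28.3 in cKO (interval 27.5 to 29.5). Its ratio was 1.67, its log2 difference 0.71. Six3os1 was thus above every one of the 9 factors in each library, at 2.23 times the level of Six3 in control and 2.44 times in cKO. It was named after its values were seen. A later annotation (GENCODE vM21) has it overlapping Six3 on the opposite strand, and where transcripts overlap, reads from either cannot be told apart without strand.

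Six6 (chromosome 12, 74040932 to 74045886, mm9), the close relative of Six3 that acts in retina, hypothalamus and pituitary, was at 2.06 FPKM in control (interval 1.73 to 2.38) and 2.31 in cKO (interval 2.06 to 2.51). The log2 difference was 0.12, with -0.14 to 0.36 from the bounds, close to the median of all tested genes. The gene 4930447C04Rik, at 1.34 FPKM in control and 0.624 in cKO, lies 22179 bases from Six6 in the authors' table. GENCODE vM21 has it overlapping Six6 on the opposite strand, where reads could not be told apart without strand. Six3 and Six6 share at most 20 bases in a row between their annotated protein-coding transcripts, and Vax1 and Vax2 at most 23. Six3 and Six2 share a stretch of 60 bases, so some short reads could match both, and Six2 had 1.16 FPKM in control against 2.54 in cKO.

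Lhx2 (chromosome 2, 38194801 to 38225257, mm9), a LIM homeodomain factor that commits cells to the eye field, was the highest of the 9 factors in control, at 8.37 FPKM (interval 7.54 to 9.20). It was at 9.67 FPKM in cKO (interval 9.12 to 10.2), a ratio of 1.16 and a log2 difference of 0.19, with -0.01 to 0.40 from the bounds. The intervals overlapped. Relative to Lhx2 in the same library, which removes any scaling between libraries, Vax1 went from 0.814 times to 1.28 times and Six3 from 0.906 to 1.20. Pax6 went from 0.238 to 0.394 times, Pax2 from 0.440 to 0.546, and Six6 from 0.246 to 0.239. The directions depended on the reference gene. Relative to the astrocyte marker Sox9 (16.3 FPKM in control, 25.2 in cKO), Vax1 went from 0.418 to 0.491 times and Pax6 from 0.122 to 0.151. By the same reference, Pax2 went from 0.226 to 0.209 times, Six3 from 0.465 to 0.459, Lhx2 from 0.513 to 0.384 and Six6 from 0.126 to 0.0916.

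Otx2 (chromosome 14, 49277352 to 49287319, mm9), a factor of the forebrain, pigment epithelium and photoreceptor precursors, had 0.0745 FPKM in control against 0.0235 in cKO, with intervals that both reached 0. Nkx2-1 (chromosome 12, 57632924 to 57637895, mm9), which specifies ventral forebrain, was at 0.482 FPKM in control (interval 0.299 to 0.661) and 0.348 in cKO (interval 0.259 to 0.436). These were the factors with the cKO value below control, and in each the intervals overlapped. The median log2 difference of the 4 tested eye and forebrain factors was 0.37, against 0.60 for the stalk pair, and their ranges overlapped, with Pax2 (0.42) below Pax6 (0.68) and Six3 (0.55). Of the summed FPKM of the 9 factors, Vax1 made up 21.6% in control and 26.8% in cKO, the latter from a value above its own interval, and Pax2 made up 11.7% and 11.4%.

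The direction of the smaller differences depended on how the libraries were scaled to each other. Vax1, Pax6, Six3 and Pax2 were above 0 in each of the 4 scalings, but with equal sums Vax1 went from 0.78 to 0.47, Pax6 from 0.68 to 0.42, Six3 from 0.55 to 0.25 and Pax2 from 0.42 to 0.15. Lhx2 was at 0.19 on the deposited scale and -0.11 with equal sums. Six6 was at 0.12, at -0.00 after centring on the median and at -0.11 with equal sums. The median of all tested genes was itself at 0.12 on the deposited scale and at -0.17 with equal sums.

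**Figure D3:**
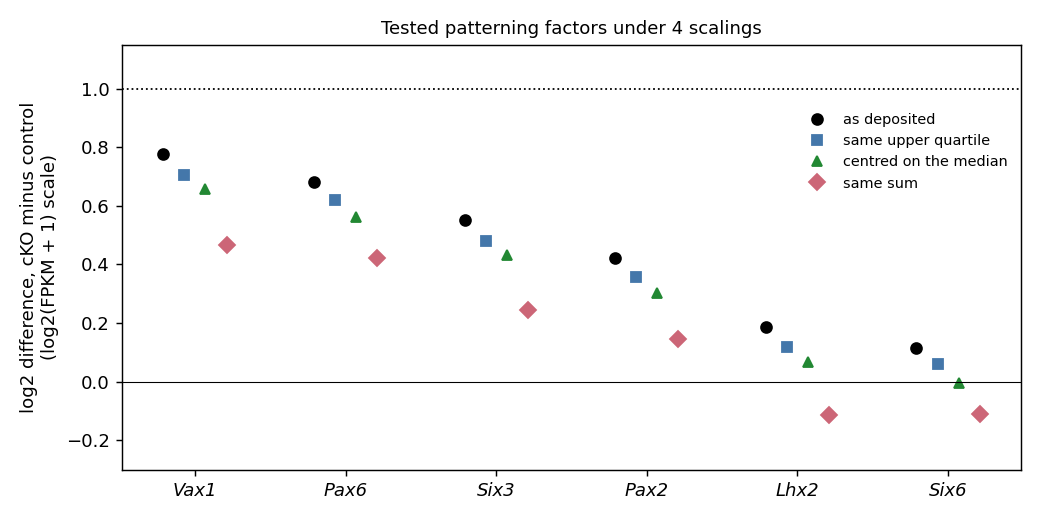
log2 difference (vertical axis, cKO minus control on the log2(FPKM + 1) scale) of the 6 tested factors as deposited and after 3 other scalings, one marker each. The order Vax1, Pax6, Six3, Pax2 is kept above 0 in each scaling, while Lhx2 reaches -0.11 and Six6 -0.11 with equal sums; the dotted line marks 2-fold.

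Markers of several cell types differed between the libraries. All 10 oligodendrocyte markers were lower, at a median of -2.52 on the log2 scale, and they summed to 27621 FPKM in control against 3695 in cKO. Of 12 astrocyte markers, 11 were tested, 3 being higher and 0 lower (median 0.79), with sums of 1926 and 3323 FPKM. The other one, Gfap, had 3997 FPKM in the control library, and for cKO its estimate was skipped by the authors' software and listed at 0. Markers of meningeal fibroblasts summed to 1460 FPKM in control and 3409 in cKO, 6 of 7 being higher (median 1.29). The number higher was 5 with equal upper quartiles, 5 after centring and 3 with equal sums. Of 5 oligodendrocyte precursor markers, 2 were lower, Gpr17 (215 FPKM in control, 37.2 in cKO) and Neu4 (15.2 and 2.47), and Gpr17 made up most of the change in the list's sum from 325 to 134 FPKM. The precursor receptor Pdgfra was at 35.4 and 38.8 FPKM, with the cKO interval above that of control, and Matn4 at 48.9 and 48.8. Cspg4 went the other way, at 9.93 and 6.93 FPKM (log2 -0.46), with the cKO interval below that of control and without meeting the rule. Of 8 choroid plexus markers, 3 were tested and 2 were higher, Kcnj13 (7.94 and 22.8 FPKM) and Kl (2.09 and 5.93), while the defining markers Ttr (0.107 and 0.574) and Folr1 (0.131 and 0.135) were below 1 FPKM in both libraries. The part of these shifts in the values of the 9 factors was not tested, and in whole nerve more cells of a type and more RNA per cell cannot be told apart.

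On the deposited scale, all 6 tested factors had a log2 difference above 0. So did 10 of 11 tested astrocyte markers and 7 of 7 meningeal fibroblast markers. For choroid plexus and pigment epithelium it was 3 of 3 tested markers each. Among the oligodendrocyte markers it was 0 of 10, and among the precursor markers 1 of 5. Of the tested markers it was 1 of 2 for retinal neurons and glia, 1 of 3 for pituitary and 2 of 4 for hypothalamus. With equal sums, Lhx2 and Six6 were below 0, at -0.11 each. As given above, 61.4% of all tested genes were above 0.

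Markers of retina and pigment epithelium, tissues that border the nerve and express some of these factors, were mostly below 1 FPKM. Of 13 markers of retinal neurons and glia, 2 reached 1 FPKM, Rlbp1 (10.6 FPKM in control, 5.75 in cKO) and Rbpms (4.55 and 9.72), and neither is restricted to the retina. The photoreceptor gene Sag (0.191 and 0.151 FPKM) was low in both libraries, and the retinal list summed to 16.9 FPKM in control and 17.2 in cKO. Of 8 pigment epithelium markers, 3 were tested and 0 met the rule, with sums of 4.44 and 5.81 FPKM. Rpe65, the visual cycle enzyme of that layer, was at 0.0221 and 0.00698 FPKM. Of 15 pituitary markers, 3 were tested. For Pomc the cKO value lay above control (1.72 against 1.35 FPKM), with overlapping intervals. The other 2 were lower in cKO. These were Cga, the shared subunit of the glycoprotein hormones, at 6.54 and 0.0235 FPKM, and Tshb, the thyrotropin subunit, at 2.97 and 0.356, which with a pseudocount of 5 no longer met the rule. The pituitary list summed to 11.4 FPKM in control and 2.57 in cKO, with 6 of 15 genes, Prl among them, listed at 0 in control and 4 of 15, Prl included, in cKO. The hypothalamic neuropeptide genes Avp (61.0 and 52.8 FPKM) and Oxt (24.6 and 17.0) did not meet the rule, and these values lie above their own intervals in both libraries (for Avp 33.9 to 43.1 in control and 30.2 to 35.1 in cKO), and the list of 11 summed to 90.1 and 75.7 FPKM. Six3, Six6 and Nkx2-1 are also known from hypothalamus or pituitary, and the part of such cells in their values was not tested.

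The other factors of the same gene families were mostly below 1 FPKM. Of 25 such relatives, 7 could be tested, 1 was higher and 1 lower, with a median log2 difference of 0.57. Nkx2-2, a factor of oligodendrocyte differentiation, had 18.5 FPKM in control against 2.86 in cKO, a log2 difference of -2.33. It was thus the most abundant relative in control, and its direction was opposite to that of the tested factors. Six5 was at 4.62 and 10.8 FPKM, a log2 difference of 1.07 that was short of 2-fold in 3 of 3 other scalings. Otx1, at 0.788 and 1.55 FPKM (log2 0.51), did not meet the rule.

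Further regional factors were listed by territory, with Otx1 and Pax8 among those that stand on the list of relatives too. Of 24 further forebrain factors, 7 could be tested, 2 were higher and 1 lower. Fezf2, a factor of the rostral forebrain, was at 6.04 FPKM in control (interval 5.03 to 6.54) and 19.3 in cKO (interval 17.1 to 18.7, below the value itself), a log2 difference of 1.53. It met the rule in each of the 4 scalings. Foxd1, a factor of the ventral diencephalon, temporal retina and stroma, was at 7.50 and 18.6 FPKM (log2 1.21). It did not meet the rule with equal sums (log2 0.89) or with a pseudocount of 5 (log2 0.92). Gsx1, a factor of the ventral forebrain, was lower, with 3.83 FPKM in control against 0.496 in cKO (log2 -1.69), though not with a pseudocount of 5.

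Of 20 further retinal factors, 6 could be tested and 0 met the rule, with a median log2 difference of 0.29. Prox1, which acts in retinal interneurons and in the oligodendrocyte lineage, had 8.60 FPKM in control against 5.68 in cKO (log2 -0.52), and Tbx2, of the dorsal eye, was at 3.58 and 6.85 (log2 0.78). Of 22 factors of hindbrain and spinal cord, 3 could be tested. En2, of the midbrain and cerebellum, was lower, at 1.80 and 0.275 FPKM (log2 -1.13), though not with a pseudocount of 5, and Gbx2 was at 3.67 and 7.62 (log2 0.88) without meeting the rule, which it met with a pseudocount of 0.1 (log2 1.03). The highest FPKM among the 19 others, the 13 Hox genes included, was 0.293.

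**Figure D4:**
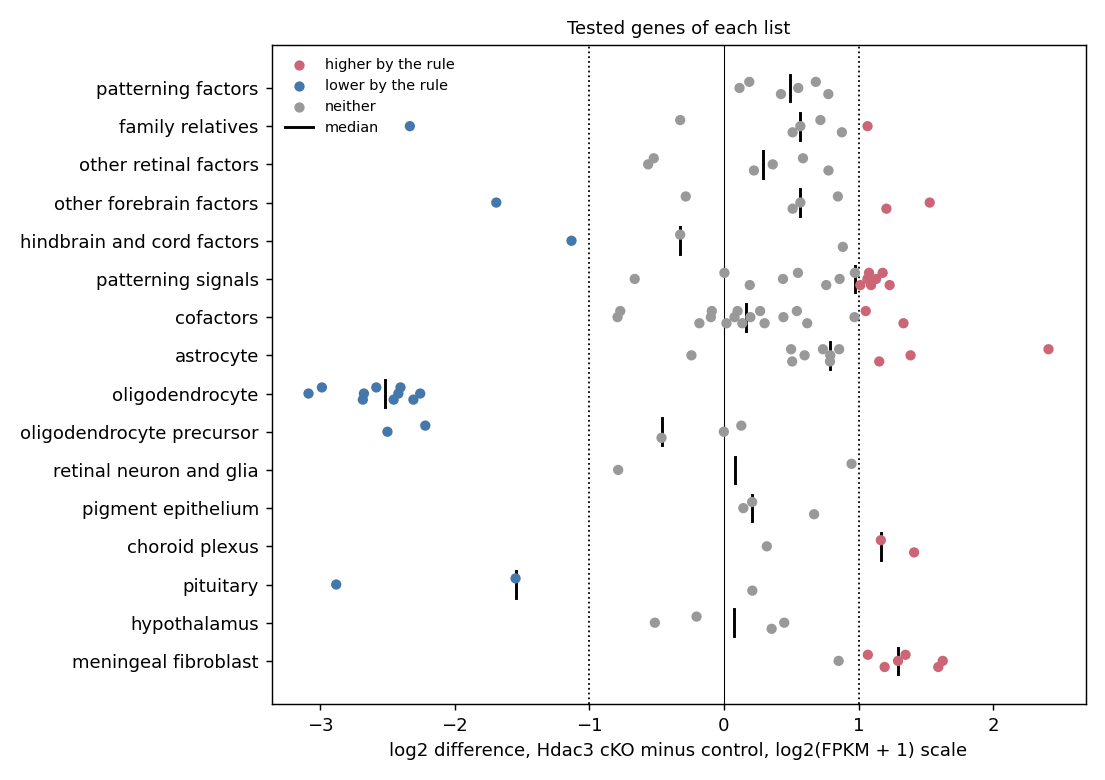
log2 differences (horizontal axis, cKO minus control on the log2(FPKM + 1) scale) of tested genes in each list (rows), coloured by the 2-fold and interval rule, with the list's median as a black bar. The 6 patterning factors are all grey and above 0, the patterning signals centre at 0.97, and the oligodendrocyte markers all lie below -2.

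Genes of the signals that pattern the stalk and eye included 7 that met the rule, while 0 of the 6 tested factors did. Over all tested genes, 4.73% were higher by the rule. Of 22 ligands, receptors and retinoid enzymes, 15 could be tested, 7 were higher and 0 lower, with a median log2 difference of 0.97. The number higher was 5 with equal upper quartiles, 3 with medians centred and 0 with equal sums, where the median was 0.64. With a pseudocount of 5 it was 2, Bmp7 and Aldh1a1. The ligand Shh, with 0.0882 FPKM in control against 0.0511 in cKO, was not tested. Its coreceptors Boc (4.19 and 10.4 FPKM, log2 1.13) and Gas1 (20.2 and 43.4, log2 1.07) were higher, and Cdon (3.34 and 3.96, log2 0.19) did not meet the rule. Bmp7, a ligand needed for the optic fissure, was at 43.1 and 93.1 FPKM (log2 1.09). Of the retinoic acid enzymes, Aldh1a1 was at 82.5 and 195 FPKM (log2 1.23), while Aldh1a2, at 77.5 and 153 (log2 0.97), did not meet the rule.

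Efnb1, an ephrin of eye patterning, was at 4.74 and 12.0 FPKM (log2 1.18), and Sfrp1, a secreted Wnt modulator, at 10.9 and 24.0 (log2 1.08). Cyp26b1, which breaks down retinoic acid, was at 15.3 and 32.0 FPKM (log2 1.01) and was also higher. Sfrp2, a relative of Sfrp1, went the other way, at 2.34 and 1.11 FPKM (log2 -0.66). Its cKO interval was below that of control, and it did not meet the rule. Cyp26b1 and Sfrp2 were outside the naming rule and were named after their values were seen. The meningeal fibroblast markers given above also had higher levels in cKO, and Aldh1a2 and Bmp7 are known from meninges as well. Their part in these differences was not tested.

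The partner proteins of the 9 factors were broadly expressed. Of 20 cofactors, 18 could be tested, 2 were higher and 0 lower, with a median log2 difference of 0.17, near that of all tested genes and at -0.15 with equal sums. Eya2, a coactivator of Six3-class proteins, had 13.6 FPKM in control against 29.2 in cKO (log2 1.05), and was short of 2-fold in the 3 other scalings. Lmo4, a LIM-only protein that competes with LIM homeodomain factors such as Lhx2 for the adaptor Ldb1, was at 43.7 and 112 FPKM (log2 1.33). Aes, a member of the Groucho family and the most abundant of the listed cofactors, was at 188 and 207 FPKM (log2 0.14). Ldb1 itself, outside the naming rule, was at 37.2 and 45.0 FPKM (log2 0.27).

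Over the 2 libraries, the listed gene closest in level to Vax1 was Ntn1 (7.49 and 13.4 FPKM), a guidance cue of the nerve head, out of 107 tested genes on the lists. For Pax2 it was Lmo3 (3.84 and 4.96 FPKM), and for Six3 it was Vax1. Closeness over 2 libraries describes the levels only.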

How the data were processed

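Optic nerve RNA-seq of 1 control and 1 Hdac3 cKO library was analysed, grouped by the labels. The authors deposited FPKM per gene with interval bounds and a status, per the file headers; CASAVA, TopHat, Cufflinks and the mm9 build are named in the submitters' processing notes, and their versions, the annotation and the read numbers are not stated in the sources used here. The interval bounds are in FPKM (unit other) as deposited. The 24460 entries were reduced to 1 per symbol, that with the highest summed FPKM. Genes with status OK in both libraries that reached 1 FPKM in either were tested on log2(FPKM + 1) values with no further scaling, and called at 2-fold with separate intervals. Locus starts were taken as counted from 0, since 10443 locus spans then equal the RefSeq gene length (614 otherwise), and are printed counted from 1. The rule was checked on simulated data. No p-value was computed.

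The 9 factors and the lists were chosen with earlier results of these data known. Named genes are the 9 factors, Hdac3, the listed gene closest in level to each tested factor, and from each list the 2 tested genes with the highest mean FPKM and up to 6 past the rule with the largest difference; other genes were named after their values were seen, as were the markers given as low and the antisense neighbours. Promoter sequences are from RefSeq (GRCm38.p6; 8 of 9 factors matched) and transcripts from GENCODE vM21. Python 3.11.15, pandas 2.3.3 and matplotlib 3.10.9 were used. In all, 9 alternatives were planned and 1 was added after seeing the data. Some genes of the lists, which the naming rule may select, are not reported here.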

Additional observations from a re-analysis of the deposited data

How the results depend on the processing

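No paired analysis was possible because each group has 1 library, and for the same reason no replicate could be left out. The number of patterning factors past the 2-fold rule was 0 in each direction under each of the 9 alternatives chosen at the outset. With separate intervals at any size of difference, an alternative added after seeing the data, 4 of 6 were higher. Of the genes of the 6 lists of other factors, signals and cofactors (context genes), 35 were higher and 11 lower. Over all tested genes, 38.4% were higher and 22.5% lower in this way. The 6 lists held 7 relatives, 6 retinal, 7 forebrain and 3 hindbrain and cord factors, 15 signals and 18 cofactors that were tested, some genes standing on more than 1 list. By the 2-fold rule on the deposited scale, 12 context genes were higher and 3 lower, beside 4.73% and 4.51% of all tested genes. The number of context genes higher was 4 with a pseudocount of 5, 6 after centring on the median and 2 with equal sums. The number lower was 5 with a pseudocount of 0.1, 1 with a pseudocount of 5 and 1 with a minimum of 5 FPKM. The median of the eye and forebrain factors, 0.37 as reported, was 0.068 with equal sums, 0.23 with a pseudocount of 5 and 0.19 with no minimum FPKM, and that of the stalk pair, 0.60, was 0.31 with equal sums. Six6 was at -0.0043 after centring and -0.11 with equal sums, and Lhx2 at -0.11 with equal sums. The share of called genes that were higher, over all tested genes, was 51.2% on the deposited scale, 43.3% with equal upper quartiles, 36.6% after centring and 18.3% with equal sums. Over all tested genes, 669 were higher and 638 lower, and these numbers were 1156 and 823 with a pseudocount of 0.1, 282 and 339 with a pseudocount of 5, and 215 and 963 with equal sums. Why these counts moved was not tested beyond the settings themselves. Read depth is unknown, so values below 1 FPKM cannot be separated from background.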
